A study of Arabidopsis thaliana with 6 samples.

Results

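The spliceosome core and a group of splicing regulators were examined in germinating seeds of Arabidopsis thaliana, as 48 genes picked by locus identifier out of 32389 genes with counts. The list held 3 proteins of the U1 snRNP (small nuclear ribonucleoprotein), 2 of the U2 snRNP, 4 subunits of U2AF, 6 Sm proteins, 11 LSM proteins, 4 proteins of the U5 snRNP and tri-snRNP, 5 of the NTC/MAC complex, 5 RSZ and RS2Z factors, GRP7 and GRP8, 3 PTB proteins, both subunits of the nuclear cap-binding complex, and SUA. All 48 passed the filter on low counts. Wild-type seeds (Col-0, 3 libraries) were compared with scl30a-1 seeds in the Columbia background (3 libraries), a line named for SCL30a, which encodes a serine/arginine-rich splicing factor. Seeds of both genotypes were stratified for 3 days in the cold and collected 18 h later from continuous white light at 21 degrees Celsius, and poly(A) RNA was sequenced. The labels give neither the nature of the scl30a-1 lesion nor the number of plants behind a seed batch, and they name the RNA source as germinating seed but its extraction as from whole seedlings. In such bulk samples, fewer cells of a type and less RNA per cell cannot be told apart.

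The spliceosome removes introns in steps. The U1 snRNP recognises the 5′ splice site, U2AF binds the pyrimidine tract and the AG at the 3′ splice site, and the U2 snRNP then settles on the branch point. The U4/U6.U5 tri-snRNP joins, BRR2 unwinds the U4 and U6 RNAs, and the NTC (MAC in Arabidopsis) holds the active centre, which PRP8 scaffolds. In seeds, several of these factors are known from mutants with altered responses to abscisic acid (ABA), the hormone that holds back germination, among them SAD1 (LSM5), ABH1 (CBP80) and SUA.

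Library totals ran from 70687361 to 85605647 counts and overlapped between genotypes, and the members had 705 to 90275 counts in a library. SCL30a had 6890 to 8425 counts in the wild-type libraries and 440 to 478 in the scl30a-1 libraries. The libraries labelled scl30a-1 thus all had far fewer SCL30a counts. The seeds also differed in state. Of 11 seed maturation genes (storage proteins, oleosins and EM proteins), 11 were called higher in scl30a-1, and their summed level was 1278 to 1621 CPM in the wild type and 9819 to 11529 CPM in scl30a-1 (CPM are counts scaled to library size with edgeR TMM factors). Of 3 endosperm markers, 2 were called higher, against 41.7% of all genes tested called in either direction. The sum of the 3 ran from 1606 to 1701 CPM in the wild type and from 2281 to 2358 CPM in scl30a-1. EPR1 rose from a mean of 228 to 724 CPM and MAN7 from 125 to 179 CPM. EXPA2, the largest part of the sum, overlapped and was not called (means of 1303 and 1415 CPM). Values given for a gene in 3 libraries of a genotype are in the order of the column letters a, b and c. The part of seed state and tissue share in the results below was not tested.

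Most of the listed splicing genes were at nearly the same level in both genotypes. Of the 48 genes, 7 (14.6%) were called with the edgeR test at an adjusted p below 0.05: 5 were higher in scl30a-1 and 2 were lower. Over all 18736 genes tested 41.7% were called, 21.9% (4106) higher and 19.7% (3700) lower. The split of all calls depended on scaling, with 2961 higher and 5258 lower under upper-quartile factors and 3119 higher and 4589 lower with none. The share called was thus below that of all genes, although the members had a median of 6550 counts per library against 1308 for all genes tested. PRP8B, LSM6A, STA1, CBP80 and LSM8 rose, and LSM1B and RSZ22a fell. PRP8B was the only member that differed by 1.5-fold or more, a size reached by 13.6% of all genes tested.

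Among the 41 members that were not called, the log2 fold change lay between -0.13 and 0.17. Their 95% intervals reached from 0.841-fold to 1.27-fold at the widest. The median absolute log2 fold change was 0.0898 for the members and 0.172 for all genes tested, and the median log2 fold change was 0.0386 and 0.00274. The 3 libraries of one genotype lay wholly above those of the other for 14 members (29.2%), against 52.1% of all genes tested. In scl30a-1 9 members lay above and 5 below the wild type, against 26.9% and 25.2% of all genes. These 14 were the 7 called genes and LSM4, SKIP, CDC5, RS2Z33, MAC3A, PTB2 and PTB3.

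**Figure D1:**
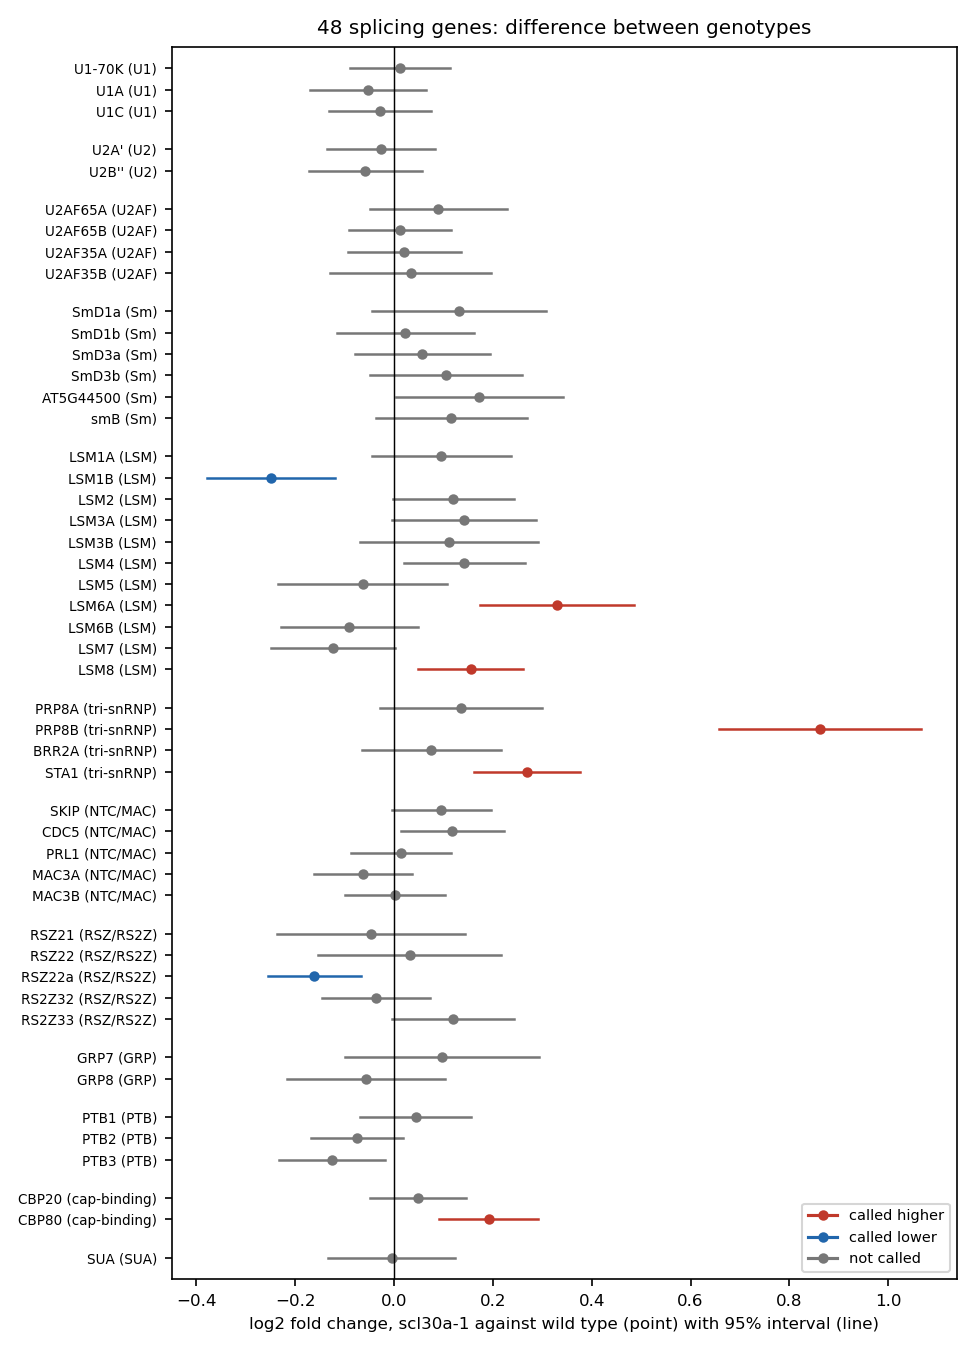
Log2 fold change of scl30a-1 against wild type for each of the 48 genes (horizontal axis), in 12 subgroups from top to bottom. Points are edgeR estimates and lines their 95% intervals (3 libraries per genotype); PRP8B at 0.86 stands apart, and the intervals of the grey genes stay within -0.25 and 0.34.

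The sequences just before 5 of the genes are shown because the genes differ in response: PRP8B, STA1, LSM1B and RSZ22a were called, and PRP8A is the uncalled copy of PRP8B. Each is the 200 bases before the annotated gene start in the RefSeq genome TAIR10.1, read 5′ to 3′ on the strand of the gene. The deposited table carries no coordinates and its genome is named TAIR10. Capitals mark TGGGCC, a motif known as site II of growth-related plant promoters, on either strand (GGCCCA on the other). The PRP8B window overlaps the small gene AT4G38781.
PRP8A, chr1:30117647-30117846, plus strand: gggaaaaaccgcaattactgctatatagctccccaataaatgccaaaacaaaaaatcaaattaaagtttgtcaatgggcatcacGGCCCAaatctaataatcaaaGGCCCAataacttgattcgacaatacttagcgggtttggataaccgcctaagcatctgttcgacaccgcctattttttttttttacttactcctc
PRP8B, chr4:18111083-18111282, minus strand: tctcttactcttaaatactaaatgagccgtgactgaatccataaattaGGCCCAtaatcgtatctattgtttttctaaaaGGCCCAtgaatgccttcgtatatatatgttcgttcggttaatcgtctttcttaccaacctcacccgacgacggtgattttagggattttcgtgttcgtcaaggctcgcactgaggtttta
STA1, chr4:1520564-1520763, minus strand: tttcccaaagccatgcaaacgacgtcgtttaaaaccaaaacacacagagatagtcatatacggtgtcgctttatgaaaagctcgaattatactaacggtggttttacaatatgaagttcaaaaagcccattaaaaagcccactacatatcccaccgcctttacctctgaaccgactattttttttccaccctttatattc
LSM1B, chr3:4667108-4667307, plus strand: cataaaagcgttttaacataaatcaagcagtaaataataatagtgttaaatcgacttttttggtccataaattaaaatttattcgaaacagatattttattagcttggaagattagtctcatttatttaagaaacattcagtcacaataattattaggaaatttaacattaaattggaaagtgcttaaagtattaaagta
RSZ22a, chr2:10449431-10449630, plus strand: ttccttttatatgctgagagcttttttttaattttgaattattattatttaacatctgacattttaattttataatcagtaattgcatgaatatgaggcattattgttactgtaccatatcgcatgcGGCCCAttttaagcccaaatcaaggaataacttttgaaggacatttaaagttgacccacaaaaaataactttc

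The PRP8A and PRP8B windows hold 2 matches each, RSZ22a has 1, and these letters are not in the STA1 and LSM1B windows. Across the list, 21 of 48 windows (43.8%) hold TGGGCC on either strand, against 16.7% of the 18647 windows of tested genes with coordinates. PRP8B and RSZ22a are the called genes among those 21. The core of the ABA-responsive element, ACGTG, is in 8 member windows (16.7%) and in 20.7% of all. AAACCCTA, the telo-box, is in 2 member windows (4.17%), those of U1A and LSM6A, and in 3.17% of all. No overlap between matches of different motifs was removed, and a match describes the letters of a window, not a bound site.

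Levels between genes were compared as CPM per kilobase of the longest RefSeq transcript, a length that may differ from the one the reads were counted over. GRP7 was the most abundant member at 846 ± 82.4 CPM per kb in the wild type (SD, n = 3), followed by GRP8 at 740 ± 53.2, and their spreads overlapped. MAC3B came next at 123 ± 0.364 CPM per kb, then SmD3a (118.6 ± 5.39) and RS2Z33 (113.5 ± 3.06), of which neighbours did not differ beyond their spread. Wild-type means of 34 of the 48 genes lay between 40 and 160. At the low end, LSM6A (17.9 ± 1.29) stood above AT5G44500 (13.6 ± 0.9) and PTB1 (13.4 ± 0.45), which overlapped in their spread. PRP8B was lowest at 1.47 ± 0.163 CPM per kb. The level of GRP7 was 575 times that of PRP8B, while most of the snRNP proteins lay within a 4-fold band. The median member stood at 57.8 CPM per kb in the wild type and the median of all genes tested at 9.13.

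**Figure D2:**
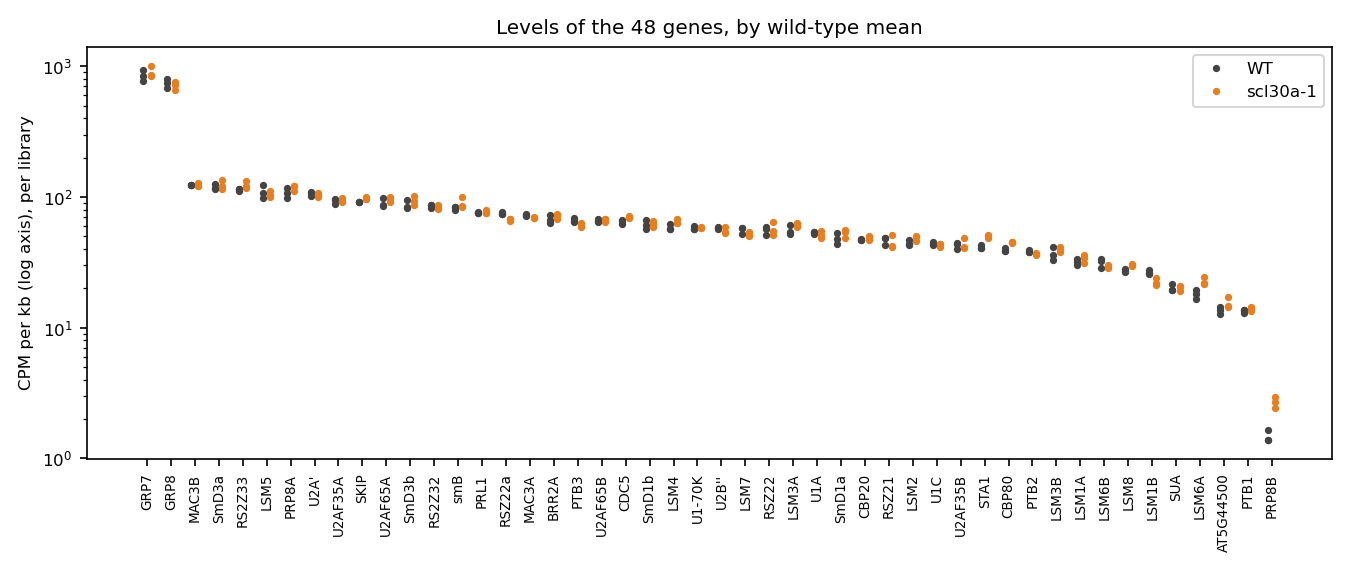
Level (CPM per kb of transcript, log axis) of each of the 48 genes in every library, ordered by the wild-type mean. GRP7 and GRP8 average 846 and 740 in the wild type and PRP8B 1.47; dark points are wild-type and orange points scl30a-1 libraries.

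Among the listed genes, none for the proteins that first mark the splice sites, and none for an Sm protein, was called. This does not extend to genes outside the list. There, AT2G14285 and AT3G11500, annotated as small nuclear ribonucleoprotein family proteins, were called lower (log2 fold changes -0.26 and -0.20). AT4G14342, annotated as splicing factor 3B subunit 5, was called lower too (-0.31), while AT3G23325 of the same annotation was not called (0.06). AT3G24730, annotated as a thioredoxin-like U5 snRNP splicing factor, was called higher (0.36). Of 51 genes of a wider set described below, 10 were called higher and 5 lower (29.4%, against 41.7% of all genes tested). In the U1, U2, U2AF and Sm groups together, 0 of 15 genes had an edgeR adjusted p under 0.05, and 1 had an unadjusted p under 0.05. DESeq2 and limma-voom also called 0 of these 15. A replicate block by column letter called 2 (SmD1a and AT5G44500, higher), and removal of the length trend described below called 1 (U1A, lower). Their 95% intervals ran from 0.887-fold to 1.27-fold at the widest.

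U1A (AT2G47580), which binds a stem-loop of the U1 RNA, had the smallest p of the U1 group. It stood at 55.2, 55.2 and 53.2 CPM in the wild type, and at 52.0, 56.1 and 49.7 CPM in scl30a-1. The groups overlapped, with a log2 fold change of -0.05 (SE 0.0525, edgeR adjusted p = 0.453). U1-70K, the RNA-binding protein that SR proteins contact, and U1C, which stabilises the pairing with the 5′ splice site, had log2 fold changes of 0.01 and -0.03. U1A shares 16.9% of its 36-base words with the overlapping AT2G09945 on the other strand, and since the use of strand is not stated, their reads may mix.

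In the U2 snRNP, U2B″ (AT2G30260) gave 74.8, 73.7 and 71.5 CPM in the wild type and 67.7, 75.0 and 68.7 CPM in scl30a-1. It overlapped between genotypes (log2 fold change -0.06 with an SE of 0.0515, edgeR adjusted p = 0.398). Its partner U2A′ had a log2 fold change of -0.03. Both form a pair on the U2 RNA.

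U2AF consists of a large subunit, which binds the pyrimidine tract, and a small one, which reads the AG. U2AF65A (AT4G36690) gave 199.9, 197.2 and 225.6 CPM in the wild type and 229.7, 211.7 and 221.2 CPM in scl30a-1. Wild-type library c lay among the scl30a-1 values, so the groups overlapped (log2 fold change 0.09 with an SE of 0.062, edgeR adjusted p = 0.278). U2AF65B, U2AF35A and U2AF35B had log2 fold changes of 0.01, 0.02 and 0.03. The U2AF35B value is uncertain, since 75.3% of its words are shared with overlapping or related loci.

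Sm proteins form the ring around the U1, U2, U4 and U5 RNAs. All 6 on the list had log2 fold changes above 0 with TMM scaling, from 0.02 to 0.17, but none passed the test. Outside the list, genes annotated as small nuclear ribonucleoprotein F, G or family proteins went both ways. AT2G18740, AT3G62840 and AT4G18372 were above 0 (0.14, 0.06 and 0.05) and not called. SNRNP-G, RUXF, AT2G47640 and AT4G30330 were below 0 and not called, and AT2G14285 and AT3G11500 were called lower (-0.26 and -0.20). SmD1b was below 0 without composition scaling and without wild-type library c. Both SmD1b and SmD3a were below 0 with upper-quartile factors and without scl30a-1 library b, and SmD1a, SmD1b and SmD3a were with the length trend removed, which left 3 of 6 above 0. The smallest p was that of AT5G44500, annotated as a small nuclear ribonucleoprotein family protein and paired here with smB. It gave 24.9, 23.8 and 21.9 CPM in the wild type and 24.7, 29.5 and 25.3 CPM in scl30a-1, with overlap (log2 fold change 0.17 with an SE of 0.076, edgeR adjusted p = 0.0953). SmD1a, SmD1b, SmD3a, SmD3b and smB were not called either. SmD1a shares 30.4% and SmD3b 17.2% of their words with other genes.

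The LSM proteins form related rings. A nuclear ring that contains LSM8 binds the U6 RNA, whereas a cytoplasmic ring that contains LSM1 in its place promotes removal of the mRNA cap and decay, and the other subunits are shared. Of the 11 genes, LSM6A and LSM8 were called higher and LSM1B lower. The other 8 were not called, with log2 fold changes from -0.12 for LSM7 to 0.14 for LSM4.

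LSM6A (AT3G59810, chromosome 3 from 22096469 to 22097966, plus strand), a shared ring subunit, gave 16.4, 14.2 and 15.4 CPM in the wild type and 20.8, 18.8 and 18.3 CPM in scl30a-1. All mutant libraries lay above all wild-type libraries. The mean went from 15.4 ± 1.1 to 19.3 ± 1.3 CPM (log2 fold change 0.33 with an SE of 0.0696, edgeR adjusted p = 0.00402). Its paralog LSM6B gave 32.9, 28 and 31.5 CPM in the wild type and 29.7, 28.2 and 28.9 CPM in scl30a-1. It overlapped and was not called (log2 fold change -0.09 with an SE of 0.0624, edgeR adjusted p = 0.275).

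LSM8 (AT1G65700, chromosome 1 from 24434203 to 24436456, minus strand) gave 23.2, 22.0 and 22.4 CPM in the wild type and 24.4, 25.2 and 25.6 CPM in scl30a-1. The groups did not overlap, though by a small gap (log2 fold change 0.16 with an SE of 0.0478, edgeR adjusted p = 0.0255). The LSM8 call was lost when no composition factors were used (adjusted p = 0.124), under upper-quartile factors (0.163), after removal of the length trend (0.423), and without wild-type library b (0.104), wild-type library c (0.0821) or scl30a-1 library c (0.108). Over all alternatives its adjusted p ranged from 0.0239 to 0.423.

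LSM1B (AT3G14080, chromosome 3 from 4667308 to 4669194, plus strand) fell, from 27.2, 25.5 and 25.9 CPM in the wild type to 20.9, 21.5 and 23.7 CPM in scl30a-1. Every mutant library was below every wild-type library, and mutant library c was nearest to them. The difference was -0.25 on the log2 scale, with an SE of 0.0581 (edgeR adjusted p = 0.00684). LSM1A gave 25.6, 24.3 and 23.2 CPM in the wild type and 26.3, 27.6 and 24.0 CPM in scl30a-1 and was not called (log2 fold change 0.10 with an SE of 0.063, edgeR adjusted p = 0.252). The ratio of LSM8 to the sum of LSM1A and LSM1B, chosen after the values were seen, was 0.459, 0.460 and 0.477 in CPM per kb in the wild type. In scl30a-1 it was 0.529, 0.525 and 0.557. The ratio was built from genes already seen called in opposite directions, so it restates those calls. Its exact permutation p of 0.1 is therefore not read as support.

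LSM5 (SAD1) is known for mutants that are hypersensitive to ABA, and it was not called (log2 fold change -0.06). A share of 25.8% of its words belongs also to the overlapping AT5G48880. LSM2, LSM3A, LSM3B and LSM4 had log2 fold changes of 0.12, 0.14, 0.11 and 0.14. LSM4 gave 0.0612 and LSM7 0.104 as edgeR adjusted p, both above the threshold. LSM7 was called lower with no composition factors, with upper-quartile factors, without wild-type library c, with the block by column letter and with the length trend removed. LSM4 and LSM3A were called higher with the block and without wild-type library a, LSM3B only without that library, and LSM5 was called lower only with the length trend removed.

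In the U5 snRNP and tri-snRNP group, PRP8B and STA1 rose, while PRP8A and BRR2A were not called. PRP8B (AT4G38780, chromosome 4 from 18101296 to 18111082, minus strand) encodes a second, little expressed copy of the PRP8 scaffold. It gave 9.86, 9.93 and 11.9 CPM in the wild type and 21.0, 17.3 and 19.4 CPM in scl30a-1. The groups stood well apart, with means of 10.6 ± 1.17 and 19.3 ± 1.86 CPM (log2 fold change 0.86, 95% interval 0.66 to 1.07, SE 0.0916, edgeR adjusted p = 5.35e-05). PRP8B shares 1.38% of its words with PRP8A and AT4G38781, and it overlaps AT4G38781 on the same strand. PRP8A stood at 107 and PRP8B at 1.47 CPM per kb in the wild type. Even a small share of reads from shared words could thus weigh on the PRP8B level, which was not tested.

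PRP8A (SUS2, AT1G80070), the main copy, gave 739.4, 801.1 and 883.4 CPM in the wild type and 914.6, 832 and 915 CPM in scl30a-1. Wild-type library c fell between the mutant values, and the gene was not called (log2 fold change 0.13 with an SE of 0.0734, edgeR adjusted p = 0.169). With the length trend removed it was called higher (log2 fold change 0.19, edgeR adjusted p = 0.00477), and over all alternatives the adjusted p ran up to 0.49. In CPM per kb, PRP8B made up 1.38%, 1.28% and 1.39% of the PRP8 total in the wild type and 2.35%, 2.13% and 2.17% in scl30a-1. The summed PRP8 level, 99.7 to 119.1 CPM per kb in the wild type and 113 to 124.5 in scl30a-1, overlapped.

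STA1 (AT4G03430, chromosome 4 from 1516030 to 1520563, minus strand) is the Arabidopsis relative of yeast PRP6, which bridges U5 and U4/U6, and it is known for a cold-sensitive mutant. It gave 180.7, 181.3 and 191.2 CPM in the wild type and 216.4, 222 and 228.4 CPM in scl30a-1. The libraries did not overlap (log2 fold change 0.27 with an SE of 0.0479, edgeR adjusted p = 0.00151). BRR2A, the helicase that unwinds U4 from U6, had a log2 fold change of 0.08 and was called only with the length trend removed (higher). None of the 36-base words of STA1 occurs in another gene.

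In the NTC/MAC group 0 of 5 genes were called by edgeR, 1 had an unadjusted p under 0.05, and DESeq2 and limma-voom called 0 too. Upper-quartile factors called MAC3A lower, and removal of the length trend called SKIP and CDC5 higher. CDC5 (AT1G09770), a MYB-related core subunit, had the smallest p. It gave 199, 210.9 and 208.2 CPM in the wild type and 219.5, 228.6 and 222.6 CPM in scl30a-1. The mutant libraries were all higher, but the gene missed the threshold (log2 fold change 0.12 with an SE of 0.0469, edgeR adjusted p = 0.069). With the length trend removed it passed (edgeR adjusted p = 0.0126), and over all alternatives the adjusted p ran from there to 0.403. SKIP, PRL1, MAC3A and MAC3B, the last 2 being relatives of the PRP19 ubiquitin ligase, had log2 fold changes of 0.10, 0.01, -0.06 and 0.00.

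RSZ and RS2Z factors are SR-type proteins with zinc knuckles, members of the same broad SR family as SCL30a. Of the 5, RSZ22a (AT2G24590, chromosome 2 from 10449631 to 10451184, plus strand) fell and the others were not called. It gave 74.1, 73.3 and 76.1 CPM in the wild type and 67.3, 67.1 and 65.5 CPM in scl30a-1. The groups were tight and did not overlap (log2 fold change -0.16 with an SE of 0.0424, edgeR adjusted p = 0.0122). RSZ22 (AT4G31580) gave 106.6, 103 and 92.7 CPM in the wild type and 99.8, 116.3 and 92.8 CPM in scl30a-1, with full overlap (log2 fold change 0.03 with an SE of 0.083, edgeR adjusted p = 0.787). RSZ21, RS2Z32 and RS2Z33 had log2 fold changes of -0.05, -0.04 and 0.12. RS2Z33 shares 26.7% of its words with the overlapping AT2G08865 on the other strand.

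GRP7 and GRP8 are glycine-rich RNA-binding proteins of the circadian system that act on their own and each other's splicing. GRP7 (AT2G21660) gave 1085, 977.3 and 893.1 CPM in the wild type and 1003, 1174 and 981.8 CPM in scl30a-1. It overlapped (log2 fold change 0.10 with an SE of 0.0881, edgeR adjusted p = 0.413). GRP8 had a log2 fold change of -0.06 and overlapped as well.

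PTB proteins bind pyrimidine-rich RNA and steer alternative splicing. Of the 3 genes 0 were called by edgeR, and PTB3 had an unadjusted p under 0.05. PTB3 (AT1G43190) gave 119.6, 122.5 and 128 CPM in the wild type and 117.1, 109.6 and 112.6 CPM in scl30a-1. The mutant libraries were all lower, with an edgeR adjusted p of 0.061 (log2 fold change -0.13, SE 0.0483). DESeq2 did call it (adjusted p = 0.0389), and so did edgeR with DESeq2 size factors (0.0481), with no composition factors (0.0331), with upper-quartile factors (0.00999), with the block by column letter (0.0491) and with the length trend removed (0.0466). Its adjusted p over all alternatives ran from 0.00999 to 0.136. PTB1 and PTB2 had log2 fold changes of 0.04 and -0.07, and PTB2 was called lower with upper-quartile factors.

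The nuclear cap-binding complex couples capping to splicing and microRNA processing, and loss of its large subunit makes germination hypersensitive to ABA. CBP80 (ABH1, AT2G13540, chromosome 2 from 5636884 to 5643066, plus strand) rose, from 115.2, 114.9 and 120.9 CPM in the wild type to 134.9, 130.6 and 135.2 CPM in scl30a-1. No libraries overlapped (log2 fold change 0.19 with an SE of 0.0451, edgeR adjusted p = 0.00718). With no composition factors its adjusted p was 0.0503, the highest over the alternatives, and the lowest was 0.000258. CBP20, the cap-holding small subunit, had a log2 fold change of 0.05 and was not called.

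SUA (AT3G54230), the suppressor of abi3-5, controls the splicing of a cryptic intron in ABI3, a regulator of seed maturation. It gave 78.1, 78.4 and 86.9 CPM in the wild type and 83.6, 76.5 and 82.5 CPM in scl30a-1. The groups overlapped fully, and the 95% interval of the log2 fold change ran from -0.13 to 0.12 (SE 0.0576, edgeR adjusted p = 0.953). Counts over whole genes do not tell isoforms apart, here or for any other member.

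**Figure D3:**
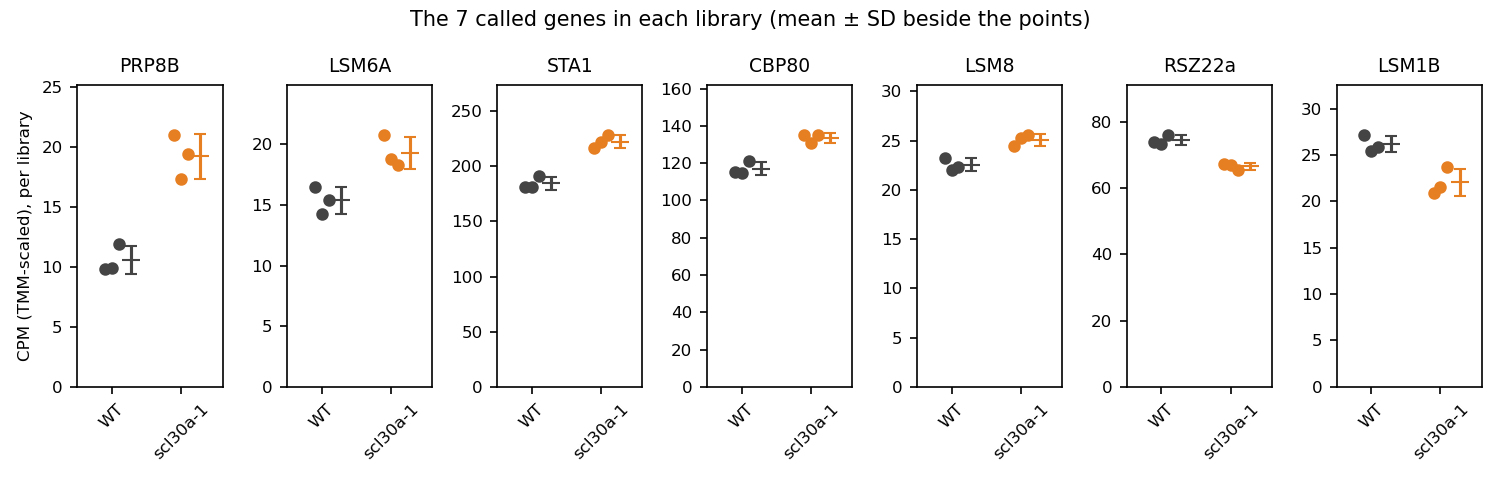
Level of the 7 called genes in each library (TMM-scaled CPM, axis from 0, one panel per gene). Points are libraries, with mean ± SD beside them (n = 3); PRP8B goes from 10.6 to 19.3 CPM on average, and in each panel no library of one genotype reaches the range of the other.

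Many members come in pairs of related genes. The change of the ratio within a pair depends neither on how libraries are scaled nor on the transcript lengths used. The ratio itself depends on the lengths. Where the copies differ in length, the change may still carry the length trend of a library described below, which was not tested. Of 14 pairs compared in CPM per kb, 7 had ratios that did not overlap between genotypes. The levels of 52.1% of single genes tested did not overlap, but no such share was computed for ratios of other genes. With 3 libraries against 3, an exact two-sided permutation test cannot go below p = 0.1, and after Benjamini-Hochberg adjustment over the 14 pairs no value was under 0.2. The ratios are therefore given as measured. For the LSM6, LSM1, PRP8 and RSZ22 pairs, in which 1 copy was called, they partly restate that call.

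LSM6A stood at 0.573, 0.583 and 0.561 of LSM6B in the wild type and at 0.800, 0.765 and 0.727 in scl30a-1. The balance thus lay nearer to equal levels in every mutant library (exact permutation p = 0.1, adjusted p = 0.2). LSM1A was 1.22, 1.23 and 1.15 times LSM1B in the wild type and 1.63, 1.66 and 1.31 times LSM1B in scl30a-1. Mutant library c stood nearer to the wild type than the others (exact permutation p = 0.1, adjusted p = 0.2). PRP8A exceeded PRP8B 71.7-fold, 77.2-fold and 70.8-fold in the wild type and 41.6-fold, 45.9-fold and 45.1-fold in scl30a-1 (exact permutation p = 0.1, adjusted p = 0.2). The summed LSM6 level, 45.2 to 52.8 CPM per kb in the wild type and 50.7 to 54.6 in scl30a-1, overlapped, and the summed LSM1 level (56.3 to 60.8 and 55.2 to 57.7) did so too.

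Smaller shifts without overlap were seen for SmD1a against SmD1b (0.11 on the log2 scale), RS2Z32 against RS2Z33 (-0.16), GRP7 against GRP8 (0.15) and PTB1 against PTB2 (0.12), pairs in which no member was called. The U2AF65, U2AF35, SmD3, smB, LSM3, MAC3 and RSZ22 pairs overlapped between genotypes.

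**Figure D4:**
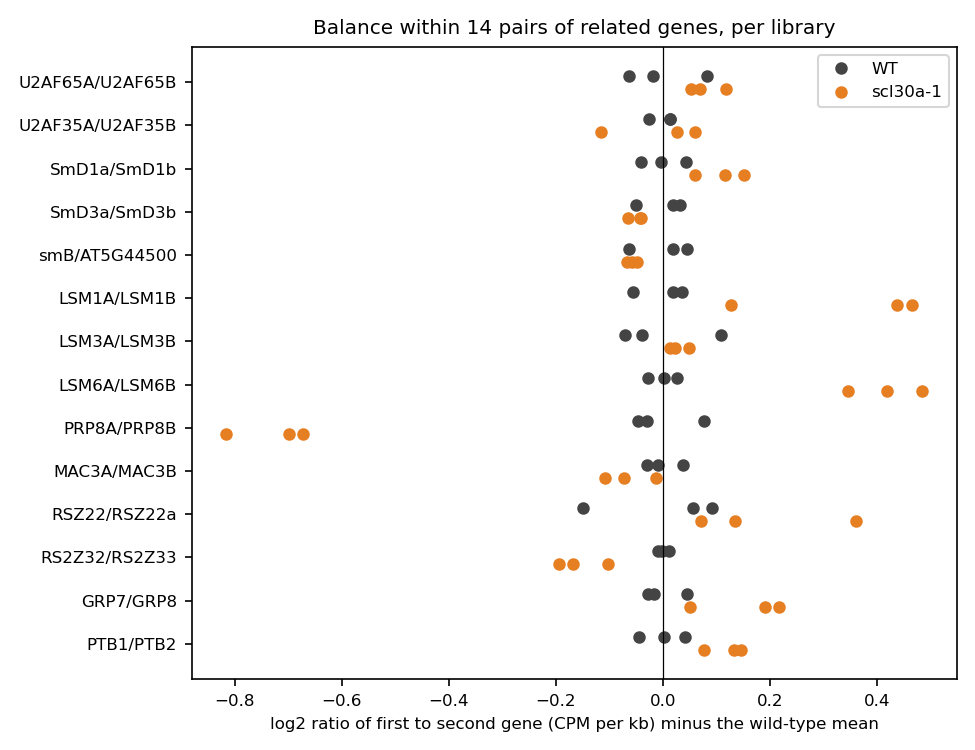
Log2 ratio of the first to the second gene of 14 related pairs in each library (CPM per kb), less the wild-type mean of the pair. Dark points are wild-type and orange points scl30a-1 libraries. PRP8A/PRP8B moves by -0.73, LSM6A/LSM6B by 0.42 and LSM1A/LSM1B by 0.34. The other pairs move by less, from -0.16 for RS2Z32/RS2Z33 to 0.19 for RSZ22/RSZ22a.

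Libraries of one genotype differed from each other in a way that followed gene length. Across the 48 genes, Spearman's rho between transcript length and the deviation from the genotype mean was -0.85 in wild-type library a and 0.66 in wild-type library c. In scl30a-1 it was -0.45 in library b and 0.56 in library c, and it was weak in wild-type library b (0.15) and scl30a-1 library a (0.091). These values describe genes that share a library, and each library enters the mean it is compared with. Long genes such as PRP8A and BRR2A were low and short ones such as LSM5 and LSM3B high in wild-type library a. A fit that removed each library's trend with length, and with it any such trend between genotypes, called 8 members higher and 6 lower, against 49.8% of all genes. The 6 calls shared with the fit above were those of LSM6A, PRP8B, STA1, CBP80, LSM1B and RSZ22a. The part of this trend in the results was otherwise not tested.

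**Figure D5:**
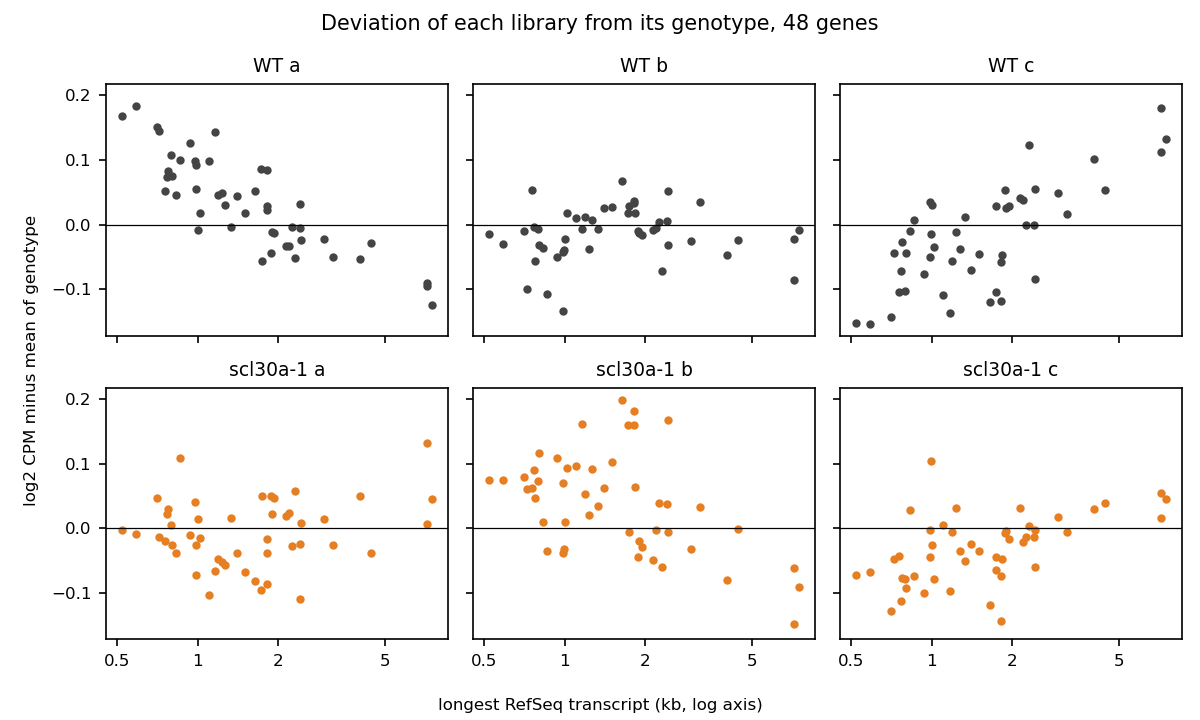
Deviation of each library's log2 CPM from the mean of its genotype for the 48 genes (vertical axis) against the length of the longest RefSeq transcript in kilobases (log axis). The points fall with length in wild-type library a (rho -0.85) and rise with it in wild-type library c (rho 0.66).

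Other genes of the pathway were taken from the RefSeq product text. Of 77 loci whose text named splicing, snRNPs or LSM proteins outside the list above and outside SR proteins, 64 were tested, 17 were called higher and 6 lower (35.9% called, median log2 fold change 0.07). The text match took in 13 tested genes that are no spliceosome parts, among them 5 with a DUF707 domain. These 5 hold AT1G11170, the largest rise of the set (log2 fold change 0.67, edgeR adjusted p = 0.000465), and AT1G67850 and AT4G18530 (0.39 and 0.38). Without those 13, removed after the values were seen, 10 of 51 were called higher and 5 lower (29.4% called). Both shares, 35.9% and 29.4%, lay below the 41.7% called of all genes tested (21.9% higher and 19.7% lower).

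SMP1, a Prp18-interacting factor of the second splicing step, rose from 57.5, 57.5 and 58.7 CPM in the wild type to 77.6, 80.7 and 80.3 CPM in scl30a-1. The groups stood clear of each other (log2 fold change 0.46 with an SE of 0.0424, edgeR adjusted p = 2.02e-05). Its relative SMP2, named after its value was seen, rose by 0.29 on the log2 scale (edgeR adjusted p = 0.000406). AT2G27285, annotated as a nuclear speckle splicing regulatory-like protein, rose by 0.36 (edgeR adjusted p = 0.000193). The largest fall called was that of AT2G44195, annotated as a pre-mRNA splicing factor domain-containing protein (log2 fold change -0.85, edgeR adjusted p = 0.0315), which had only 9 to 22 counts in a library. AT4G14342, annotated as splicing factor 3B subunit 5, was called lower (log2 fold change -0.31), while AT3G23325 of the same annotation was not called (0.06). The other falls called were those of AT2G14285 and AT3G11500, both of the small nuclear ribonucleoprotein family (-0.26 and -0.20). They also included AT1G67210, a proline-rich spliceosome-associated protein (-0.23), and AT5G56530, a tRNA-splicing ligase by its annotation (-0.20).

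Partners of the members were read from short lists. Of all genes tested, 41.7% were called (21.9% higher and 19.7% lower), and the counts below were not tested against that share. Of 6 genes for mRNA decapping and decay, which act with the LSM1 ring, DCP2, the decapping enzyme, was called higher (log2 fold change 0.18, edgeR adjusted p = 0.0121) and 5 were not called. Of 3 genes of microRNA processing, which work with the cap-binding complex (SE, DCL1 and HYL1), 0 were called by edgeR at an adjusted p under 0.05, with log2 fold changes of 0.05, 0.01 and 0.12. HYL1 had an unadjusted p under 0.05, DESeq2 and limma-voom called 0 of the 3, and the fit with the length trend removed called 1. Of 3 snRNP assembly genes, AT1G54380 (log2 fold change 0.19, edgeR adjusted p = 0.00547) and AT5G62290, an ICln family protein (0.20, edgeR adjusted p = 0.0167), were called higher, and the methyltransferase gene SKB1 (PRMT5) was not. Of 5 further MAC genes, MAC5A rose (log2 fold change 0.16, edgeR adjusted p = 0.0298) and MOS4, MAC5B, MAC5C and EMB2765 were not called.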

How the data were processed

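The authors deposited raw read counts per gene and library. The genome was TAIR10 per the submitters' processing notes; aligner, filters and strand use are not given in the sources used here. Column names give a genotype and a letter but no replicate number, so columns were assigned to genotype only. The table's 6 columns of length-normalized values were not used. Of 33602 rows, 32389 had counts.

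Counts were tested with edgeR 4.0.16 (quasi-likelihood F test, R 4.3.3), genotype as the only term, TMM scaling, filterByExpr with a minimum count of 10 and Benjamini-Hochberg adjustment over 18736 genes, called at an adjusted p under 0.05. Intervals (95%) used an SE derived from the F statistic. The fit was also run on simulated data, with far fewer changed genes than were called here and no length trend. That run is not read as support. Alternatives used DESeq2 1.42.0, limma 3.58.1, other scalings and filters, libraries left out, a block by column letter and a length correction. Pair ratios were planned on the deposited length-normalized values and were instead taken from counts and transcript lengths. RefSeq TAIR10.1 gave annotation, lengths, promoters and the 36-base words that transcripts share.

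P-values measure the spread between libraries described as biological triplicates. Genotype and any unrecorded batch cannot be told apart. Values per library were given for called members with a log2 fold change of at least 0.3 in size, for the smallest p of each subgroup and for pairs with 1 copy called. STA1 and LSM8, which were called but fall outside that rule, were added after their values were seen. From the wider set, the 5 largest called rises and falls with a mean of at least 50 counts and no overlap between genotypes were named, and AT2G44195 was added with its low counts. The members, lists and motifs were chosen with earlier results of these data known.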

Additional observations from a re-analysis of the deposited data

How the results depend on the processing

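PRP8B, LSM6A, STA1 and LSM1B kept direction and call in all 16 alternatives, and RSZ22a was lost only at an adjusted p under 0.01. The edgeR fit gave 5 members higher and 2 lower. Without composition scaling these were 3 and 4 (median log2 fold change of members -0.00983), with upper-quartile scaling 4 and 6 (median -0.0293), with the length trend removed, an alternative chosen after seeing the data, 8 and 6, and at an adjusted p under 0.01 they were 4 and 1, of 5008 genes called in all. The median of all genes moved from 0.00274 to -0.0449 and -0.065 in the first 2 of these. Leaving out one library gave 4 to 8 higher (8 without wild-type library a, when LSM3A, LSM3B and LSM4 joined) and 2 to 3 lower, and 5825 to 8075 genes called in all. A replicate block by column letter gave 9 and 4, with 47.7% of all genes called. Same-letter libraries deviated with correlations of -0.0772, 0.238 and 0.248, so the letters were not taken as pairs, and not every library correlated best with its own letter. For the 7 pair ratios without overlap, leaving out a library cannot change the sign, so the kept sign is no support. Of these, LSM1A/LSM1B ran from 0.28 to 0.45 on the log2 scale when a library was left out (0.34 with all). RSZ22/RSZ22a went from 0.19 to 0.10 without scl30a-1 library b, U2AF35A/U2AF35B from -0.01 to 0.04 without that library, and LSM3A/LSM3B from 0.03 to -0.01 without wild-type library b. Where a call changed, the cause was not tested. Every member had 705 counts or more in each library.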
